A study of Mus musculus with 12 samples.

Results

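Plac9a and Plac9b, a pair of near-identical mouse genes, were matched by symbol to the gene identifiers of a dermal RNA-seq table and make up 2 of its 55401 genes. They were chosen by the measured counts of Plac9a, which was at 0 in some libraries, all of Cthrc1-/- day 0 among them, and well counted in others, so the pattern of Plac9a over the libraries is described here and is not tested. The samples were dermis from C57BL/6 mice aged 6 weeks, either wild type (WT) or Cthrc1-/-. The latter carry a knockout of a gene for a secreted collagen triple helix repeat protein. Both genotypes were sampled on days 0 and 7 of an experiment with paired wounds, 3 biological replicates each time, giving 4 groups and 12 libraries. The labels give no other allele or treatment and do not say how the knockout was made or whether the skin taken on day 0 was intact.

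Plac9 (placenta-specific 9) encodes a small protein that is predicted to be secreted, first described from transcripts enriched in placenta. Its transcripts are also found in fibroblasts, the cells that make the collagen matrix of the dermis. In mouse the gene lies in a tandem duplication, so that a sequencing read from 1 copy can match the others letter for letter, and the number of reads credited to each copy then depends on how the counting program treats such reads.

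The duplication holds a further copy, annotated as Gm9780. It was the only other gene in the table whose transcripts aligned to a Plac9a or Plac9b transcript at 90% identity or more over at least 100 bases. In the GENCODE M21 annotation of GRCm38, Plac9a (ENSMUSG00000095304) lies at chr14:25887506-25903100, Gm9780 (ENSMUSG00000094800) at chr14:26027282-26042711 and Plac9b (ENSMUSG00000072674) at chr14:26167405-26182480, all protein-coding and on the minus strand. Their start sites are 139611 and 139769 bases apart. Each copy sits in a repeat unit with a Tmem254 gene (for a transmembrane protein), a Cphx gene and a Duxbl gene (both for homeobox proteins), as drawn in the map of the locus. Anxa11, which encodes a calcium-dependent membrane-binding annexin, lies beside the first unit.

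**Figure D1:**
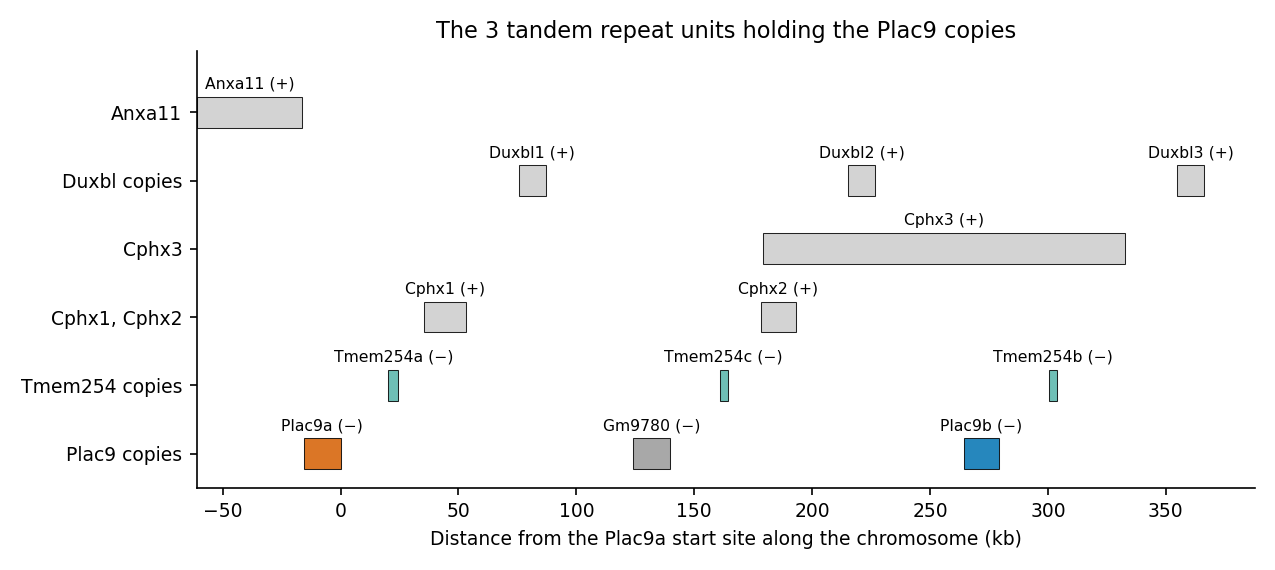
Map of the 3 repeat units, with the horizontal axis giving the distance in kb from the Plac9a start site and each box a gene with its strand in parentheses. The Plac9 copies recur at a near-constant spacing, each followed by a Tmem254 copy, and Cphx3 is annotated across parts of the other two units.

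The start of the coding sequence is printed because the whole of it is the same in all 3 copies and so cannot tell them apart. It runs over 4 coding exons of 97, 95, 124 and 11 bases, has 327 bases with its stop codon, and encodes 108 amino acids. No base differed between Plac9a, Gm9780 and Plac9b. The first 192 bases, from coding exons 1 and 2, are those of the GENCODE M21 transcripts, read 5′ to 3′ with the start codon in capitals.
Plac9a, Gm9780 and Plac9b: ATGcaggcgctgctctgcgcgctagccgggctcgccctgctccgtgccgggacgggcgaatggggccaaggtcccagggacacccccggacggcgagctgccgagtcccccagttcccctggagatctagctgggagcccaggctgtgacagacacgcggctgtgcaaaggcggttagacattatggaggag

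Outside the coding part the annotated transcripts were also nearly interchangeable. The longest Plac9b transcript, of 1040 bases, occurred whole and without a mismatch in the Plac9a transcript Plac9a-201, of 1555 bases, and so did the longest Gm9780 transcript, of 1394 bases. Of the 1694 distinct stretches of 150 bases in the Plac9a transcripts, 6 occurred in neither other copy. These 6 are the stretches that reach the final 6 bases of Plac9a-201, past the annotated end of the Gm9780 transcript. Gm9780 had 8 such stretches of 1253 and Plac9b 44 of 1223, all of the latter in the transcript Plac9b-201. The region from 250 bases before to 50 bases after the RefSeq start site was likewise the same in Gm9780 and Plac9b over all 300 bases. The Plac9a region begins at base 79 of that sequence and matches it without a break over the 222 bases to its end, so that the regions differ in where the start site is placed and not in the bases they have in common.

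In WT dermis on day 0, Plac9a had 1086, 1793 and 805 counts in replicates 1 to 3. In Cthrc1-/- dermis on day 0 it had 0 counts in all 3 libraries, a group that did not overlap WT. Of the 14313 genes tested, 19.6% were lower without overlap in this comparison, which the choice of the members used. The mean credited to Plac9a in WT on day 0 was 370-fold a floor of 3 counts per library in Cthrc1-/- on day 0. That floor takes each count as a separate event. Genes at exactly 4 counts were 3.16 to 4.05 times as frequent as the mean of those at 3 and 5. Counts may thus not be separate events, and the ratio is not a lower limit. The floor covers counting error only and not how reads shared between the copies were credited, so it does not bound the expression of Plac9a. On day 7, WT libraries had 0, 1082 and 829 counts and Cthrc1-/- libraries 402, 1314 and 1717, so the genotypes overlapped and 1 WT library was also at 0. In all, Plac9a was at 0 in 4 of 12 libraries and between 402 and 1793 counts in the other 8, with no library in between.

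Plac9b, the copy farthest from Plac9a, was detected in every library. Its counts were 2497, 2031 and 2872 in WT on day 0 and 4585, 2974 and 1492 in Cthrc1-/- on day 0. They were 1711, 2064 and 1605 in WT on day 7 and 3395, 3668 and 2649 in Cthrc1-/- on day 7. The genotypes overlapped on day 0 and not on day 7, when every Cthrc1-/- library was above every WT library.

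Gm9780, in the middle unit, had 3290, 4682 and 3301 counts in WT on day 0 and 5574, 3771 and 1811 in Cthrc1-/- on day 0. On day 7 it had 2388, 2487 and 2023 counts in WT and 3835, 3936 and 2963 in Cthrc1-/-. It followed the order of Plac9b within Cthrc1-/- on day 0, with replicate 1 highest and replicate 3 lowest in both genes. On the FPKM scale (fragments scaled to transcript length and library size), the value listed for Gm9780 was above that for Plac9b in 11 of 12 libraries. In WT on day 0 the listed FPKM values were 10.4 ± 1.75 for Plac9a, 31.1 ± 11.6 for Plac9b and 41.0 ± 2.36 for Gm9780 (SD, n = 3). The ranges of Plac9b and Gm9780 overlapped there, so their order lies within their spread. As nearly all of the sequence is shared, these values depend on how the counting divided the reads and do not give the level of each copy.

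**Figure D2:**
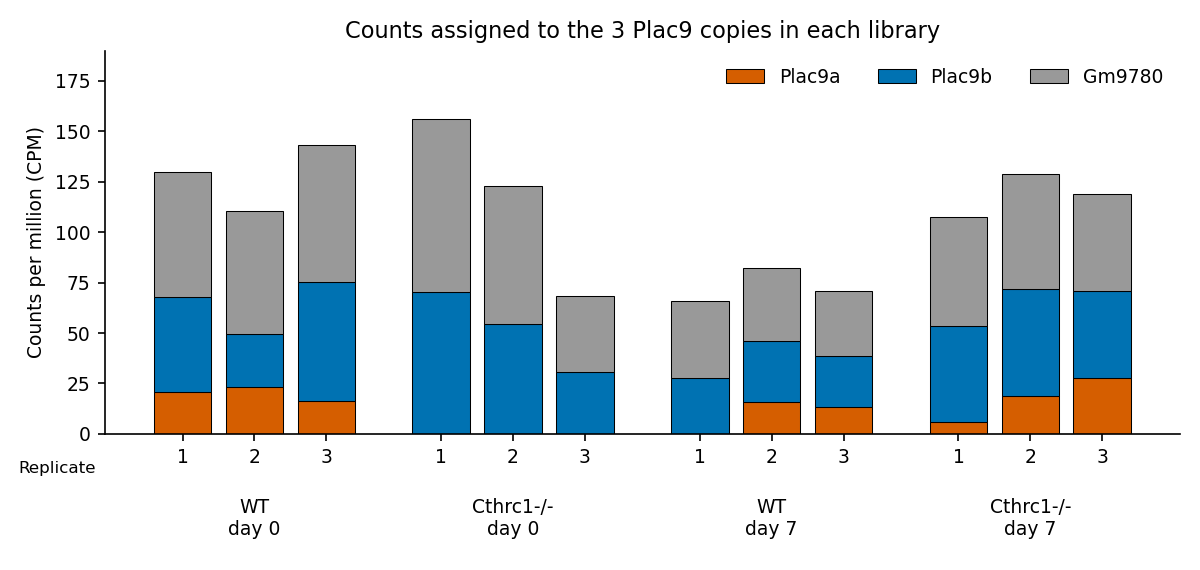
Stacked bars of CPM (counts scaled to the library's total) for Plac9a, Plac9b and Gm9780 in each of the 12 libraries, by group and replicate. The Plac9a segment is missing from all 3 libraries of Cthrc1-/- on day 0 and from WT day 7 replicate 1, while the other copies are present throughout.

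The question behind the pair is whether the 0 counts of Plac9a stand for reads credited to its copies. Added together, Plac9a and Plac9b had 67.8, 49.7 and 75.4 CPM in WT on day 0 and 70.5, 54.3 and 30.9 CPM in Cthrc1-/- on day 0. In every library with Plac9a at 0 the sum is Plac9b alone, so its presence there does not answer the question. The sum overlapped between the genotypes. Its group means on day 0 were 64.3 ± 13.2 CPM in WT and 51.9 ± 19.9 CPM in Cthrc1-/- (SD, n = 3). The log2 change from edgeR was -0.40 with a standard error (SE) of 0.31. CPM are scaled by total counts and edgeR scaled the libraries by TMM, so log2 changes here and below can differ from ratios of CPM. The size of the day 0 change moved with single libraries: without replicate 3 of Cthrc1-/- on day 0 it was -0.10, and without replicate 1 of that group it was -0.71. With Gm9780 added, the 3 copies had 130.0, 110.6 and 143.1 CPM in WT on day 0 and 156.1, 123.1 and 68.3 CPM in Cthrc1-/- on day 0, again overlapping, with a log2 change of -0.23 (SE 0.27).

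The same question can be put to the other copies alone. Plac9b and Gm9780 together had 109.5, 87.3 and 126.6 CPM in WT on day 0, when Plac9a was counted, and 156.1, 123.1 and 68.3 CPM in Cthrc1-/- on day 0, when it was not. Their level in the Cthrc1-/- group thus reached both above and below the WT range. Within WT on day 7, replicate 1, with Plac9a at 0, had 66.1 CPM in Plac9b and Gm9780, against 66.3 and 57.7 CPM in replicates 2 and 3. By CPM, the other copies in that library were inside the range of the group. The sum of all 3 copies, 66.1 CPM against 82.0 and 70.9 CPM, was the lowest of the group. Both statements depend on the scaling, as the TMM factors of replicates 1 to 3 were 0.939, 1.06 and 1.12. With TMM scaling, replicate 1 would be the highest for the other copies and no longer the lowest for the sum. Plac9b took between 41.7% and 45.2% of the counts of the 3 copies in the 4 libraries with Plac9a at 0, and between 23.9% and 44.5% in the other 8. As Plac9a is part of that total, its 0 counts by themselves raise the share of Plac9b. The shares therefore cannot show where reads were credited. These values do not separate a copy that was silent from one whose reads were credited elsewhere; how a read matching several copies was counted is not given in the sources used here, and if it was counted at each copy the sums hold it more than once.

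A neighbouring family in the same repeat showed the same kind of gap in other libraries. Tmem254a, in the first unit with Plac9a, had 775, 2554 and 0 counts in WT on day 0 and 4165, 0 and 0 in Cthrc1-/- on day 0. On day 7 it had 1182, 827 and 950 counts in WT and 0 in all 3 Cthrc1-/- libraries, the group in which Plac9a was counted in every library. Its copies Tmem254b and Tmem254c were counted in all 12 libraries. Plac9a and Tmem254a were both at 0 in 2 libraries, Plac9a alone in 2, Tmem254a alone in 4 and neither in 4. Cthrc1-/- day 0 replicate 1 had 4165 counts of Tmem254a and 0 of Plac9a, while replicates 2 and 3 of that group had 0 of both. By the measure used above, 73.7% of the stretches of 150 bases in Tmem254a are shared with another copy and 700 of 2658 occur in no other Tmem254 copy, so its counts too may hold reads from the other units.

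**Figure D3:**
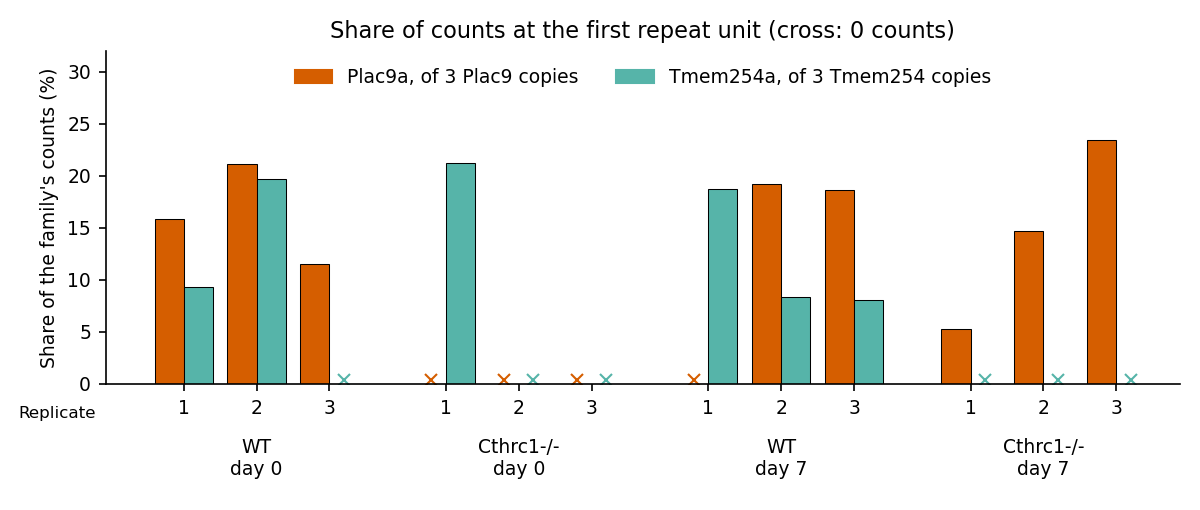
Bars give the percentage of the counts of each 3-copy family that fell on its first-unit member, Plac9a or Tmem254a, in each library by group and replicate, and crosses mark 0 counts. Plac9a lies between 5.27% and 23.4% where it is counted, and the crosses of both genes coincide in 2 libraries only.

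The remaining genes of the locus gave less to compare. Duxbl1, in the first unit, was counted in all 12 libraries, including those with Plac9a at 0, with as few as 7 counts in WT day 0 replicate 1. Duxbl3, in the third unit, had gaps: 0, 9 and 0 counts in WT and 0, 0 and 100 in Cthrc1-/- on day 0. On day 7 it had 0, 0 and 99 counts in WT and 171, 27 and 0 in Cthrc1-/-, so gaps were not confined to the first unit. The 3 Duxbl copies together had 4.76 ± 2.01 CPM in WT and 7.12 ± 1.91 CPM in Cthrc1-/- on day 0 (SD, n = 3). The Cphx copies together reached at most 1.06 CPM in any library. Anxa11 had 26.9 ± 4.86 CPM in WT and 17.8 ± 1.22 CPM in Cthrc1-/- on day 0, and 27.7 ± 16.4 and 27.6 ± 4.21 CPM on day 7. Farther along the chromosome, Dydc1, Dydc2 and Sftpa1 were at 0 counts in all groups, and Sftpd and Mbl1 reached at most 8 counts in a library. Mat1a, which encodes a methionine adenosyltransferase, was counted on day 0 only, at 2.87 ± 2.16 CPM in WT and 0.989 ± 0.661 CPM in Cthrc1-/-.

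Gaps of this kind were also counted over the genome. Among protein-coding genes, 3347 pairs had transcripts aligning at 98% identity or more over at least 80% of the shorter one. A pair was counted where, within a group, 1 member had at most 3 counts in a library and at least 100 in another while the sum of the pair was at least 100 in each library of that group. This held for 66 pairs, of which 39 do not overlap in the genome. In these 39 pairs the member with the gap was 1 of 16 genes, as a gene with several partners is counted with each. The rule was not applied to genes without a near-identical partner, so such gaps are not shown to be particular to these pairs. Of the 161 pairs that do not overlap and had a sum of at least 100 counts in every library, 15 (9.32%) showed such a gap. Plac9a with Plac9b and Plac9a with Gm9780 were among them through WT on day 7, where Plac9a had 0, 1082 and 829 counts. Among the 39 gapped pairs that do not overlap, the 5 with the largest mean sum are named here. The largest was Gm10260 with Rps18, a small-ribosomal-subunit protein, followed by Tmem254a with Tmem254c and Tmem254a with Tmem254b. Next came Eif3j2 with Eif3j1, which encode copies of a translation initiation factor subunit. Last was Gm21541 with Ccl21a, a chemokine that draws dendritic cells and T cells to lymph nodes. In WT on day 7, for example, Eif3j2 had 1329, 0 and 1559 counts while Eif3j1 had 3349, 6475 and 4610. The uniform 0 of Plac9a in Cthrc1-/- on day 0, in all 3 libraries of a group, is not counted by this rule.

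Between genotypes on day 7, counts of Plac9b and of both sums were higher in Cthrc1-/- than in WT without overlap, and no difference passed the threshold over all genes. For the sum of Plac9a and Plac9b, WT libraries had 27.6, 45.8 and 38.7 CPM and Cthrc1-/- libraries 53.6, 71.9 and 70.8 CPM. All 3 Cthrc1-/- values were above all 3 WT values, as they were for 6.63% of the tested genes. The means were 37.4 ± 9.19 and 65.4 ± 10.3 CPM (SD, n = 3), a 1.75-fold difference, and edgeR put the log2 change at 0.74 (SE 0.31) with an adjusted p of 0.905 and an unadjusted p of 0.0377. In this comparison 0.021% of tested genes passed an adjusted p of 0.05, which is 3 genes. This sum holds the Plac9a counts, whose pattern chose the members, in both groups, with the 0 of WT day 7 replicate 1. Its p values are therefore not independent of that choice. An exact two-sided permutation test of the means gave p = 0.1, the smallest that 3 against 3 libraries allow.

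Plac9b alone differed by 0.71 on the log2 scale between genotypes on day 7 (SE 0.35; edgeR adjusted p = 0.926), with means of 27.7 ± 2.26 CPM in WT and 47.9 ± 4.99 CPM in Cthrc1-/- (SD, n = 3). Gm9780 had means of 35.6 ± 3.20 and 53.0 ± 4.49 CPM and a log2 change of 0.48 (SE 0.28; edgeR adjusted p = 0.956). The 3 copies together had 66.1, 82.0 and 70.9 CPM in WT and 107.7, 128.8 and 118.9 CPM in Cthrc1-/-. They did not overlap, and their log2 change was 0.62 (SE 0.27; edgeR adjusted p = 0.905). This sum holds the Plac9a counts too, so its p is not independent of the choice of members either.

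**Figure D4:**
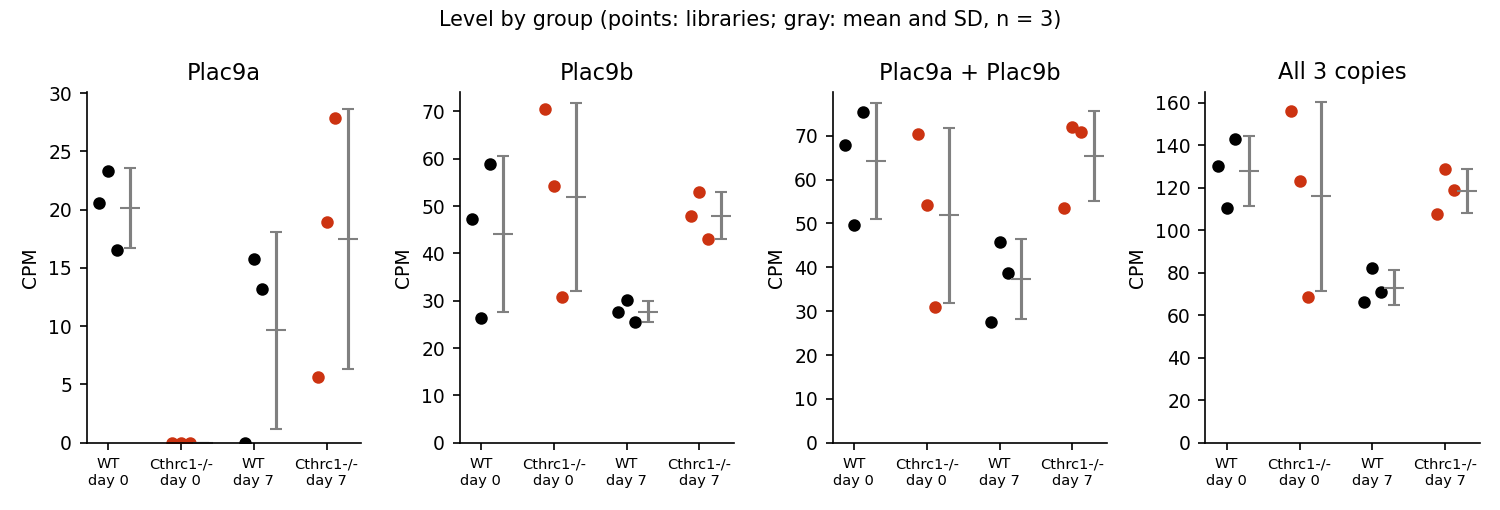
CPM of Plac9a, Plac9b, their sum and all 3 copies in the 4 groups, with points for libraries (black WT, red Cthrc1-/-) and gray marks for the mean and SD of 3 libraries. On day 7 the Cthrc1-/- points lie above the WT points for Plac9b and for both sums, and on day 0 the genotypes overlap for these.

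Between the days in WT dermis, the sum of the pair was lower on day 7 in CPM without passing the test, and Gm9780 and the 3 copies together passed it by a margin that depended on each library. The sum of Plac9a and Plac9b had 67.8, 49.7 and 75.4 CPM on day 0 and 27.6, 45.8 and 38.7 CPM on day 7. The days did not overlap, as was so for 13.7% of tested genes in the same direction. At -0.99 on the log2 scale (SE 0.31) the change missed the threshold with an edgeR adjusted p of 0.0600, in a comparison in which 13.1% of tested genes passed. The sum again holds the Plac9a counts, with the 0 of WT day 7 replicate 1, and its p values are not independent of the choice of members. It passed with DESeq2 (adjusted p = 0.0185) and when the edgeR fit held only the groups compared (adjusted p = 0.0369).

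Plac9b alone fell short of the threshold in WT with a log2 change of -0.87 (SE 0.35; edgeR adjusted p = 0.117), and its days overlapped because WT day 0 replicate 2 was at 26.4 CPM. Gm9780 fell by 1.02 on the log2 scale (SE 0.28; edgeR adjusted p = 0.0413). It had 63.6 ± 3.60 CPM on day 0 and 35.6 ± 3.20 CPM on day 7 (SD, n = 3), without overlap. With libraries scaled by total counts, as CPM are, the change of Gm9780 was -0.83 (edgeR adjusted p = 0.0446). Its call was lost when any 1 of the 6 WT libraries was left out and when low genes were kept. The 3 copies together fell by 1.01 (SE 0.28; edgeR adjusted p = 0.0400), with 127.9 ± 16.4 CPM on day 0 and 73.0 ± 8.17 CPM on day 7 (SD, n = 3). With libraries scaled by total counts, as CPM are, their change was -0.81 and missed the threshold (edgeR adjusted p = 0.0534). The 3-copy call too was lost without any 1 of the 6 WT libraries, and it held in 4 of 15 alternative analyses, whose adjusted p ran from 0.00585 to 0.124. This sum also holds the Plac9a counts, whose pattern chose the members, and adding Gm9780 was chosen after seeing the data.

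In Cthrc1-/- dermis the days overlapped for every sum. Plac9a and Plac9b together had 70.5, 54.3 and 30.9 CPM on day 0 and 53.6, 71.9 and 70.8 CPM on day 7, a log2 change of 0.14 (SE 0.31). This is given without a test, because the sum on day 0 holds the 0 counts of Plac9a that chose the members. The sign was not settled: without Cthrc1-/- day 0 replicate 3 the change was -0.15, and with Gm9780 added it was -0.16. Plac9b alone changed by -0.30 on the log2 scale (SE 0.35; edgeR adjusted p = 0.692) and did not pass, in a comparison in which 1.46% of tested genes passed. Gm9780 changed by -0.46 (SE 0.28; edgeR adjusted p = 0.420) and did not pass either. Gm9780 rested on single libraries: without Cthrc1-/- day 0 replicate 3 its change was -0.76 and passed (edgeR adjusted p = 0.0458), and without replicate 1 of that group it was -0.16. The difference between the genotypes in their change from day 0 to day 7 was 0.56 on the log2 scale for Plac9b (SE 0.49; edgeR adjusted p = 0.588), in a test that 0.014% of genes passed, so a different time course was not shown. For the sum of Plac9a and Plac9b it was 1.14 (SE 0.44) and for all 3 copies 0.85 (SE 0.39), again without a test for the reason above.

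**Figure D5:**
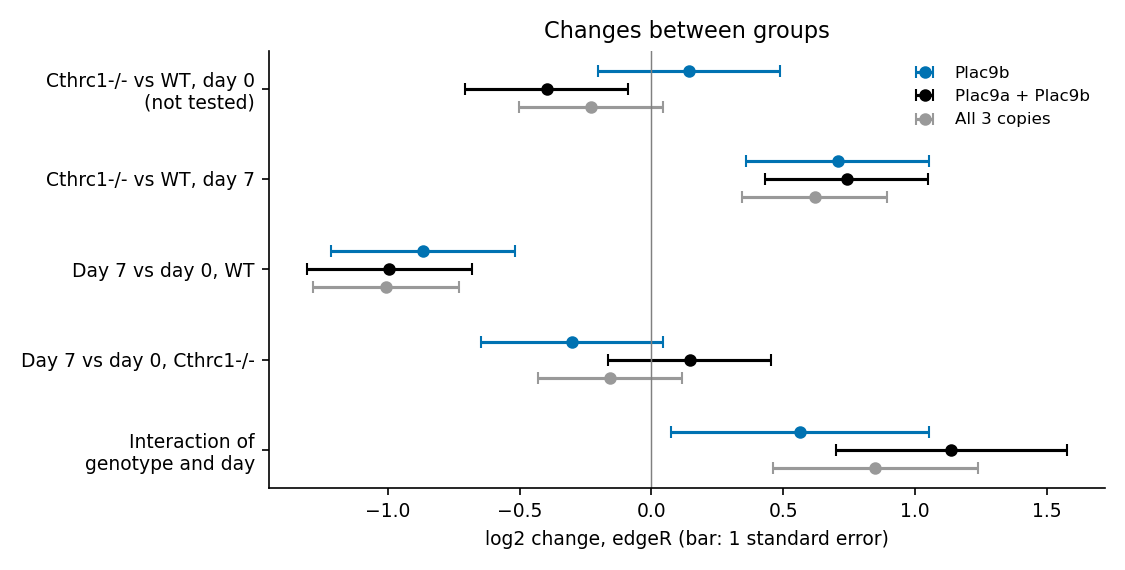
log2 changes from edgeR with 1 standard error for Plac9b, for Plac9a and Plac9b added and for all 3 copies, in the 4 comparisons of groups and the interaction. Between genotypes on day 7 and in WT between days the 3 measures share a sign, while the pair and Plac9b differ in sign between genotypes on day 0 (-0.40 and 0.14) and in Cthrc1-/- between days (0.14 and -0.30).

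Whole tissue was sequenced, so fewer cells of a type and less RNA per cell cannot be told apart, and the makeup of the libraries differed between groups. Cthrc1 itself, the gene knocked out, had between 1813 and 11678 counts in WT libraries and at most 15 in Cthrc1-/- libraries, as labelled. Total counts per library ran from 48329668 to 76938132. Markers of hair follicle keratins, Krt25, Krt27, Krt71, Krt73, Krt31 and Krt33a with Tchh, summed to between 14.6 and 21.1 CPM in WT on day 0, and to between 567.6 and 30510 CPM in Cthrc1-/- on day 0, with 3 of the 7 at 0 in some WT day 0 library. They summed to between 3985 and 9952 CPM in WT on day 7. Between the days in WT, 5 adipocyte markers (Adipoq, Plin1, Fabp4, Cidec and Lep) went from between 498.9 and 628.0 CPM to between 200.6 and 325.6 CPM, and 7 myeloid markers, Ptprc and Lyz2 among them, from between 377.0 and 408.1 CPM to between 450.9 and 4797 CPM. Between genotypes on day 7, 5 smooth muscle and pericyte markers (Acta2, Tagln, Myh11, Rgs5 and Cspg4) summed to between 853.1 and 1025 CPM in WT and between 1114 and 1312 CPM in Cthrc1-/-, without overlap. Defining fibroblast markers were present in all libraries of this dermis, and so were 7 keratinocyte markers, Krt5 and Krt14 among them, at between 5263 and 24100 CPM. Replicate 3 of Cthrc1-/- on day 0, which had the lowest Plac9 sums of its group, also had the lowest summed fibroblast markers of all groups, 4878 CPM. The part of these differences in the Plac9 values was not tested.

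The 20 genes listed for dermal fibroblasts can be set beside the Plac9 copies. On day 0, 2 of 20 were lower in Cthrc1-/- at an edgeR adjusted p under 0.05, none was higher, and the median log2 change was -1.43 against -0.05 over all genes tested; 5.78% of all genes passed. Examples were Col1a2, a chain of type I collagen, at -2.43 (SE 0.61; edgeR adjusted p = 0.0480) and Sparc, a collagen-binding matrix protein, at -2.11 (SE 0.48; edgeR adjusted p = 0.0400). Summed over the list, WT on day 0 lay between 57760 and 75400 CPM and Cthrc1-/- between 4878 and 29150 CPM without overlap, and the Plac9 sums of the same libraries overlapped. The fall on day 0 was not particular to fibroblast genes. Median log2 changes were -1.87 for adipocyte, -1.57 for skeletal muscle and -0.89 for smooth muscle and pericyte markers, 2 of 5 of the last passing. They were -0.76 for endothelial and for myeloid, -0.20 for keratinocyte and 10.67 for hair follicle markers. On day 7, where 0.021% of all tested genes passed in edgeR, 0 of the 20 fibroblast genes passed in edgeR, DESeq2 or limma. Of these genes, 0 had an unadjusted edgeR p under 0.05. All 20 had a log2 change below 0, with a median of -0.55 against -0.005 over all genes tested. All 7 myeloid and all 6 tested skeletal muscle markers were below 0 too, with medians of -0.88 and -1.57. All tested keratinocyte (7), endothelial (5), adipocyte (4) and smooth muscle and pericyte (5) markers were above 0. Of the hair follicle markers, 3 were above and 4 below. From day 0 to day 7 in WT, 1 of the 20 fibroblast genes fell, where 13.1% of all tested genes passed in either direction. It was Gsn, which encodes the actin-severing protein gelsolin, at -2.24 (SE 0.43, edgeR adjusted p = 0.0122). The median of the fibroblast list was -0.37. In Cthrc1-/- between days, where 1.46% of all genes passed, 0 of 20 passed in edgeR, 5 had an unadjusted p under 0.05, DESeq2 called 3 and limma 2, with a list median of 0.56.

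The genes whose log2(CPM + 1) was most like that of the sum of Plac9a and Plac9b over the 12 libraries were Cyp4f13, a cytochrome P450 (Pearson r = 0.912), Csrp1, a LIM-domain protein of the cytoskeleton (r = 0.906), BC029722 (r = 0.904), Cyb5a, cytochrome b5 (r = 0.90), and Fgfbp1, a fibroblast growth factor carrier (r = 0.887). These values describe 12 libraries that share groups and depth. Gm9780 ranked 211 of the 14311 genes compared, with r = 0.746. Csrp1 had mean levels of 343.9 CPM in WT and 304.5 CPM in Cthrc1-/- on day 0, and 288.7 and 353.1 CPM on day 7.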

How the data were processed

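Per the labels' protocols, poly(A) RNA from dermis was made into dUTP-marked libraries. The authors deposited whole-number counts and FPKM values (fragments scaled to transcript length and library size) for each gene and library. The submitters' processing notes name cutadapt 1.9, HISAT2 2.0.4, UMI-tools, StringTie 1.3.4d, DESeq2, edgeR and GRCm38, with no role. Handling of reads that match several copies is not given in the sources used here. Counts of exactly 4 were over-represented against 3 and 5, so division by 4 was an alternative. FPKM at 0 counts were taken as 0.

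Counts were tested with edgeR 4.0.16 (quasi-likelihood, two-sided, TMM, all 12 libraries, no covariate, R 4.3.3) on the 14313 genes whose FPKM averaged at least 1, both members included, with Benjamini-Hochberg adjustment and a threshold of 0.05. Sums replaced their rows before fitting. DESeq2 1.42.0, limma 3.58.1 on log2(FPKM + 1) and log2(FPKM + 0.1), other scalings, a replicate block and leaving out libraries were alternatives. Adding Gm9780 was chosen after seeing the data. Transcripts were aligned with minimap2 2.31 and blastn 2.17.0. With 48329668 to 76938132 counts per library, 3 counts are 0.0390 to 0.0621 CPM, a floor that covers counting error only. It takes each count as a separate event. Columns left unused numbered 0. Named genes were the members, their homologs, locus genes, a fibroblast list, the 5 most similar genes and the 5 gapped pairs with the largest sums among those that do not overlap. Members and lists were chosen with earlier results of these data known.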

Additional observations from a re-analysis of the deposited data

How the results depend on the processing

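For Plac9b, all 15 alternative fits between genotypes on day 7 kept their direction and their side of the threshold. So did all 15 in WT between days, all 20 of the interaction and 14 of 15 in Cthrc1-/- between days. For the sum of Plac9a and Plac9b, all 16 between genotypes on day 7 did, and 13 of 16 in WT between days. Its fits in Cthrc1-/- between days and for the interaction are not counted, as they are given without a test. The call for all 3 copies in WT between days held in 4 of 15. The fall of the sum of Plac9a and Plac9b from day 0 to day 7 in WT passed with DESeq2 (log2 change -0.95), with only the groups compared (-0.99) and with Gm9780 added (-1.01). In Cthrc1-/- between days, the sum turned to -0.15 without day 0 replicate 3 and to -0.16 with Gm9780 added, and Plac9b turned to 0.015 without day 0 replicate 1. Leaving out 1 library at a time gave ranges for the sum of 0.60 to 0.90 between genotypes on day 7, -1.15 to -0.76 in WT between days, -0.15 to 0.46 in Cthrc1-/- between days, 0.84 to 1.46 for the interaction and -0.71 to -0.10 between genotypes on day 0. For Plac9b the ranges were 0.60 to 0.79, -1.13 to -0.59, -0.60 to 0.015 and 0.27 to 0.88 in the order of the first 4. Same-numbered libraries correlated between -0.18 and 0.48 in their deviations, over 0.1 in 5 of 18 cases. In none of the pairs of groups compared was this so for all 3 numbers, and the numbers were not taken as a pairing; for Cthrc1-/- on day 0 with WT on day 7, which were not compared, the values were 0.20, 0.10 and 0.19. With a replicate block the sum changed by 0.75 between genotypes on day 7, by -1.01 in WT and by 0.17 in Cthrc1-/- between days, by 1.17 for the interaction and by -0.43 between genotypes on day 0, and Plac9b by 0.71, -0.88, -0.26 and 0.62. The block changed no call of Plac9b, and none of the sum between genotypes on day 7 or in WT between days. The call for all 3 copies in WT between days was lost with it (edgeR adjusted p = 0.0573). Scaling by total counts moved the median log2 change of all genes to 0.20 in WT and 0.16 in Cthrc1-/- between days. The number of gapped gene pairs was 66, and 74, 50, 92 and 45 with an identity of 95% or 99% and a minimum of 50 or 200 counts. Of the 20 fibroblast genes, edgeR called 2 lower between genotypes on day 0, DESeq2 11 and limma 4, and in WT between days edgeR called 1 lower, DESeq2 3 lower and 1 higher, and limma 1 lower. Shared sequence limits what can be said of a single copy: 6 of 1694 stretches of 150 bases are found only in Plac9a.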
